A study of Mus musculus with 3 samples.

Results

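The genes described here are 37 members of the machinery that stores, releases and recovers synaptic vesicles in nerve terminals, assayed in hippocampal RNA of adult male mice. They were taken by name as a fixed list, not by their values, and each probe whose gene name in the array files equals a member was used. All 37 had at least 1 probe above background, out of 17897 named genes measured on the same arrays. The AMA group (advanced maternal age) was male offspring of mothers aged 15 to 18 months when breeding pairs were set up. The YMA group (young maternal age, the control) was male offspring of mothers aged 3 months. Fathers were 3 months old in both groups, the offspring were killed at postnatal day 120, and no strain or treatment is given. Equal amounts of RNA from 3 males were pooled, giving 3 AMA pools and 3 YMA pools. On every one of the 3 arrays the AMA pool was in the dye Cy3 and the YMA pool in the dye Cy5. The dyes were never swapped, so that a gene-specific dye difference and a difference between the groups cannot be told apart. Litters are not given, and p-values measure only the spread between these pools.

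A nerve terminal packs transmitter into synaptic vesicles, docks them at a protein-dense plate called the active zone, and fuses them with the plasma membrane when calcium enters. Fusion is driven by SNARE proteins, which zip together from both membranes, and is triggered by calcium sensors of the synaptotagmin family. The vesicle membrane is then recovered by endocytosis and refilled. In the hippocampus these genes are expressed by neurons, and most members are bright on these arrays.

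Of the 37 members, 2 were higher and 6 were lower in AMA than in YMA pools (limma, Benjamini-Hochberg adjusted p under 0.05 over all 27629 probes tested), and 29 did not pass the test. Among all named genes 19.5% passed, 7.35% higher and 12.2% lower, against 21.6% of the members, 5.41% higher and 16.2% lower, so the share of members that passed is near the background. The members that rose were the calcium sensors Syt4 and Syt1. Those that fell were Pclo at the active zone, Sv2a and Syp in the vesicle membrane, and Amph, Synj1 and Sh3gl2, which serve vesicle endocytosis. All these differences were small: the largest, in Pclo, was 1.33-fold, and no member reached 1.5-fold, a size that 1.32% of all named genes reached.

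The median log2 ratio of AMA over YMA was -0.11 over the members and -0.028 over all named genes, and 11 members had a positive ratio. By array the members' median was -0.11, -0.024 and -0.047 on arrays 1, 2 and 3, and 23 members had the same sign on all 3, a pattern that 60.6% of all genes showed. In 2 members the AMA levels lay all above and in 13 all below the YMA levels, against 16.7% and 26.0% of all genes, or 42.6% for both directions together. In bulk tissue, fewer cells of a type and less RNA per cell cannot be told apart.

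The direction of many members depended on how the dyes were balanced. The ratios above follow a loess curve within each array, which takes out a dye difference that varies with brightness. With 1 median shift per array in its place, 1 member was higher and 34 were lower, against 2 and 6 with loess. The median of all probes tested then stood at -0.33, and 30 members lay below that and 7 above it. The members' median brightness was at the 86.1th percentile of all named genes, and 16 lay above the 90th. The 2 settings differ only in this step, and the loess curve depends on brightness alone within an array. The gap between them therefore follows brightness by construction. Which of them is nearer the true levels was not tested.

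**Figure D1:**
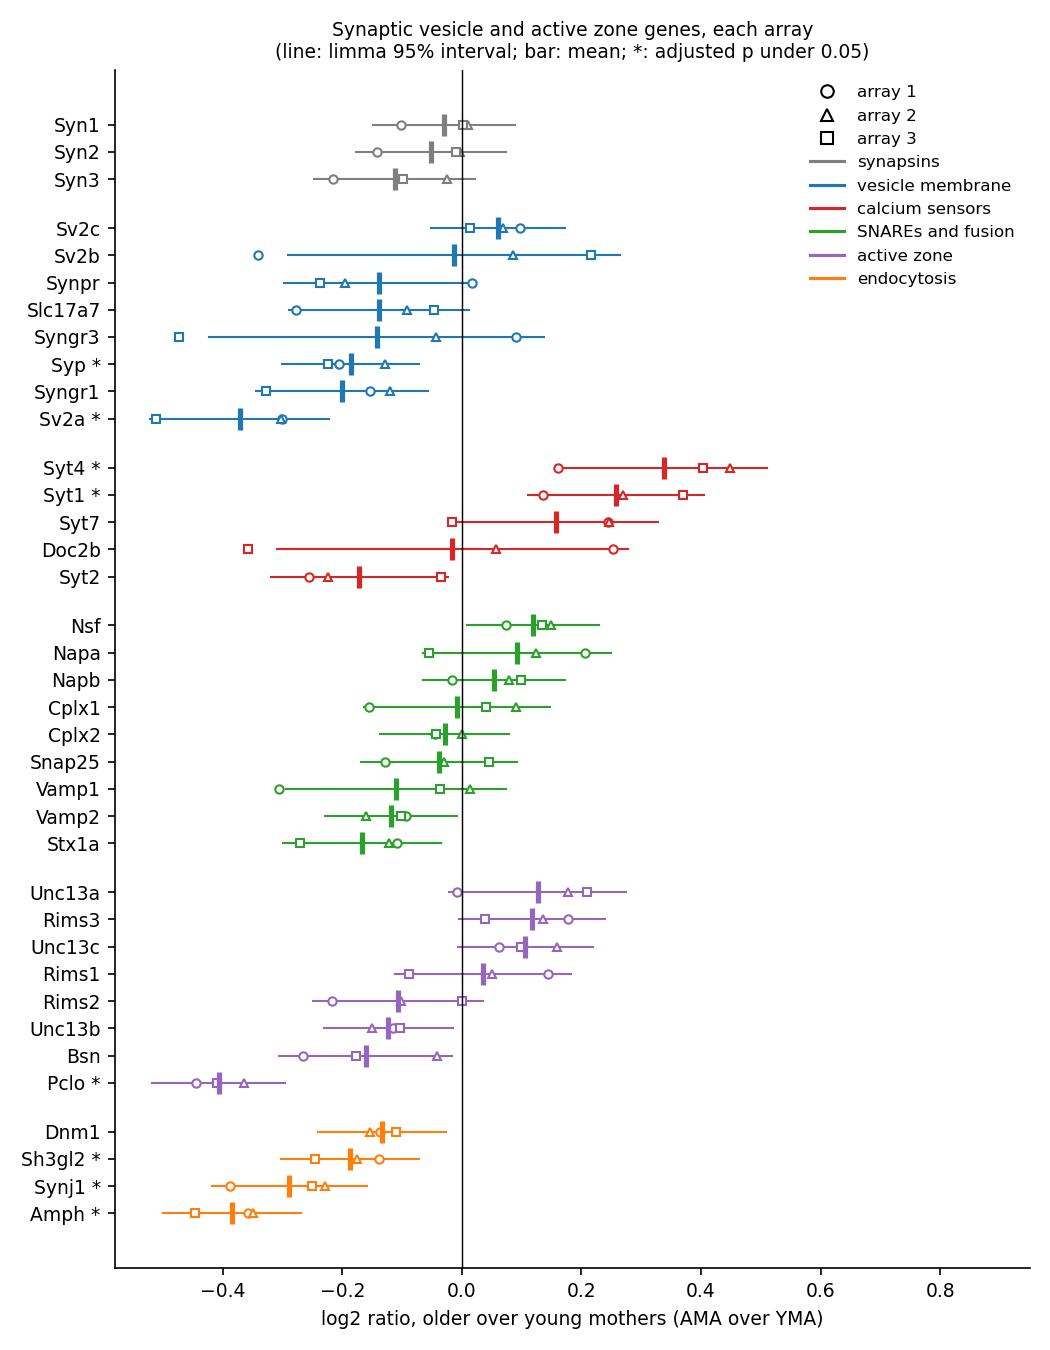
Log2 ratio of AMA over YMA (horizontal axis) for the 37 members (rows), grouped by role; symbols are the 3 arrays, thick bars the means, thin lines limma's 95% intervals and asterisks an adjusted p under 0.05. Syt4 and Syt1 lie right of 0 on all 3 arrays, while all 4 endocytosis genes lie left of it.

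**Figure D2:**
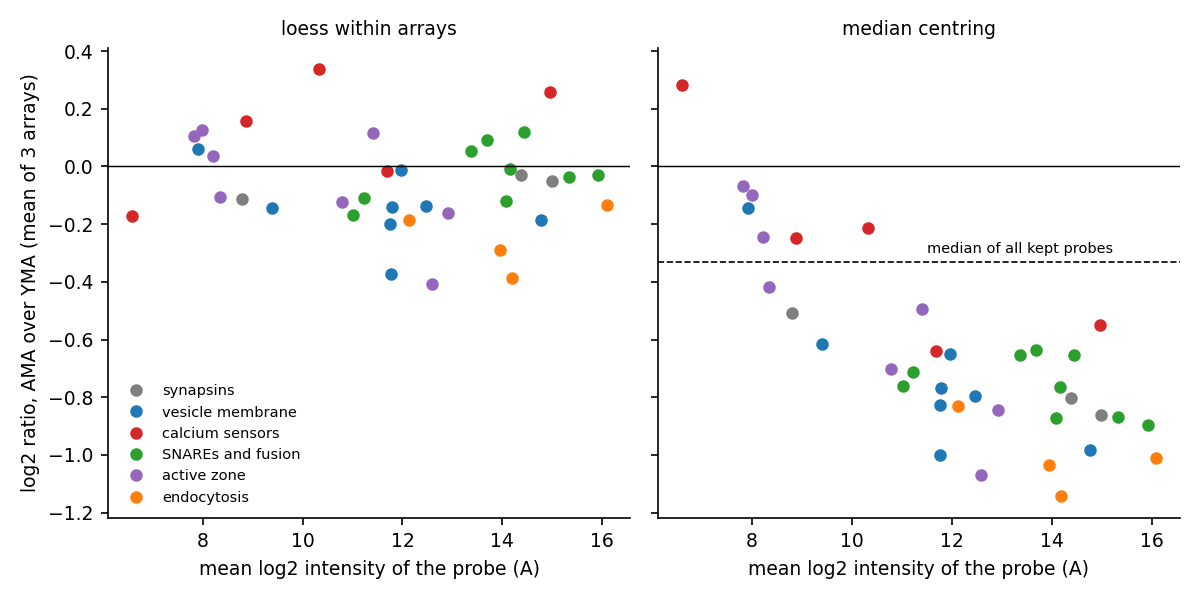
Mean log2 ratio of AMA over YMA (vertical axis) of the 37 members against the mean log2 intensity of their probes (horizontal axis), after loess within arrays (left) and after median centring (right); colours are roles. With median centring the brighter members lie lower, and 30 of 37 lie under the dashed line at -0.33, the median of all probes tested.

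The calcium sensors gave both members that rose, 2 of 5 (40%), against 7.35% of all named genes. Syt4, a synaptotagmin that does not bind calcium through its first calcium-binding domain and is found on dense-core vesicles, had normalised log2 intensities of 10.40, 10.54 and 10.53 in AMA pools, against 10.24, 10.09 and 10.13 in YMA pools. All 3 AMA pools were above all 3 YMA pools, and the log2 ratio was 0.34 ± 0.155 (SD, n = 3 arrays, adjusted p = 0.032 by limma). Syt1, the main calcium sensor for fast release in hippocampal pyramidal cells, had log2 intensities of 14.97, 15.13 and 15.17 in AMA pools, against 14.84, 14.86 and 14.80 in YMA pools. Again the groups did not overlap, and the ratio was 0.26 ± 0.117 (SD, n = 3 arrays, adjusted p = 0.0402 by limma). Both signs turned with median centring, to -0.21 for Syt4 and -0.55 for Syt1; relative to the median of all probes in that setting they stood at 0.12 and -0.22.

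The other calcium sensors did not pass. Syt7, a slower sensor linked to asynchronous release and facilitation, had log2 intensities of 9.07, 8.99 and 8.81 in AMA pools, against 8.82, 8.74 and 8.83 in YMA pools. The groups overlapped, with array 3 at -0.017, and the log2 ratio was 0.16, with a 95% interval of -0.012 to 0.33. Syt2, the fast sensor of many inhibitory and brainstem terminals, had log2 intensities of 6.48, 6.44 and 6.60 in AMA pools, against 6.73, 6.66 and 6.63 in YMA pools. Its ratio of -0.17 rests on the dimmest probe used for a member, which was well above background in Cy3 on 1 of 3 arrays. Doc2b, a calcium-binding protein linked to spontaneous release, had the widest spread of all members, with a log2 ratio of -0.016 ± 0.312 (SD, n = 3 arrays).

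By their brightest probes, all 4 endocytosis genes had AMA levels below all YMA levels, and 3 of them fell. Among all named genes 26.0% had AMA levels all below and 12.2% fell. With the mean over the probes of a gene, 1 of the 4 fell. Amph encodes amphiphysin, which senses and bends membrane at the neck of forming vesicles. Its log2 intensities were 13.95, 14.00 and 14.02 in AMA pools, against 14.31, 14.35 and 14.46 in YMA pools. The ratio was -0.39 ± 0.0539 (SD, n = 3 arrays, adjusted p = 0.0159 by limma), a 1.31-fold lower level in AMA. Synj1 encodes synaptojanin, the lipid phosphatase that helps to uncoat recovered vesicles. Its log2 intensities were 13.77, 13.83 and 13.82 in AMA pools, against 14.16, 14.06 and 14.07 in YMA pools. The log2 ratio was -0.29 ± 0.0859 (SD, n = 3 arrays, adjusted p = 0.0258 by limma). Sh3gl2 encodes endophilin A1, which recruits synaptojanin and dynamin. It had log2 intensities of 12.06, 12.07 and 11.97 in AMA pools, against 12.20, 12.25 and 12.21 in YMA pools, and its ratio was -0.19 ± 0.0546 (SD, n = 3 arrays, adjusted p = 0.0472 by limma). Sh3gl2 kept this call in 6 of 14 alternative settings. Dnm1, the neuronal dynamin that cuts vesicles from the membrane, had the smallest spread of all members, with a log2 ratio of -0.13 ± 0.0222 (SD, n = 3 arrays), and did not pass (adjusted p = 0.0806 by limma).

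In the vesicle membrane group, 2 of 8 members fell (25%) and none rose, against 12.2% and 7.35% of all named genes. Sv2a, a vesicle glycoprotein and the target of the antiepileptic drug levetiracetam, had log2 intensities of 11.65, 11.62 and 11.48 in AMA pools, against 11.95, 11.92 and 11.99 in YMA pools. The groups lay well apart, and the ratio was -0.37 ± 0.122 (SD, n = 3 arrays, adjusted p = 0.0216 by limma). Syp encodes synaptophysin, an abundant vesicle protein widely used to mark terminals. Its log2 intensities were 14.67, 14.75 and 14.63 in AMA pools, against 14.88, 14.88 and 14.86 in YMA pools. The YMA pools were nearly equal and all above the AMA pools, with a ratio of -0.19 ± 0.0507 (SD, n = 3 arrays, adjusted p = 0.0461 by limma). Syp kept this call in 7 of 14 alternative settings.

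The 6 vesicle membrane members that did not pass included close relatives of both. Syngr1, a synaptophysin-related synaptogyrin, had log2 intensities of 11.70, 11.67 and 11.60 in AMA pools, against 11.85, 11.79 and 11.92 in YMA pools. These groups did not overlap either, with a ratio of -0.20 and an adjusted p of 0.0642 by limma. For Syngr3, a synaptogyrin linked to the dopamine transporter, log2 intensities were 9.43, 9.42 and 9.12 in AMA pools, against 9.34, 9.46 and 9.60 in YMA pools. Its ratio was -0.47 on array 3, against 0.090 and -0.044 on arrays 1 and 2, with a mean of -0.14. Slc17a7, the vesicular glutamate transporter VGLUT1 of excitatory terminals, had log2 intensities of 11.67, 11.81 and 11.68 in AMA pools, against 11.95, 11.91 and 11.73 in YMA pools. Here the groups overlapped, and the log2 ratio of -0.14 had a 95% interval of -0.29 to 0.012. Synpr stood at -0.14, and the Sv2a relatives Sv2b and Sv2c stood at -0.013 and 0.060 on the log2 scale.

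At the active zone, 1 of 8 members fell (12.5%), against 12.2% of all named genes. Pclo encodes piccolo, a very large scaffold protein of the active zone. Its log2 intensities were 12.41, 12.42 and 12.34 in AMA pools, against 12.85, 12.78 and 12.75 in YMA pools. No pool of one group came near the other group, and the log2 ratio was -0.41 ± 0.0405 (SD, n = 3 arrays, adjusted p = 0.0148 by limma). Its close relative Bsn, which encodes the scaffold bassoon, had log2 intensities of 12.75, 12.94 and 12.82 in AMA pools, against 13.02, 12.98 and 12.99 in YMA pools. The AMA pools were again all below, by amounts that differed between arrays, and the ratio of -0.16 did not pass (adjusted p = 0.104 by limma). The Munc13 priming factors Unc13a, Unc13b and Unc13c stood at 0.13, -0.12 and 0.11, and the RIM scaffolds Rims1, Rims2 and Rims3 at 0.035, -0.11 and 0.12 on the log2 scale, none past the test.

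**Figure D3:**
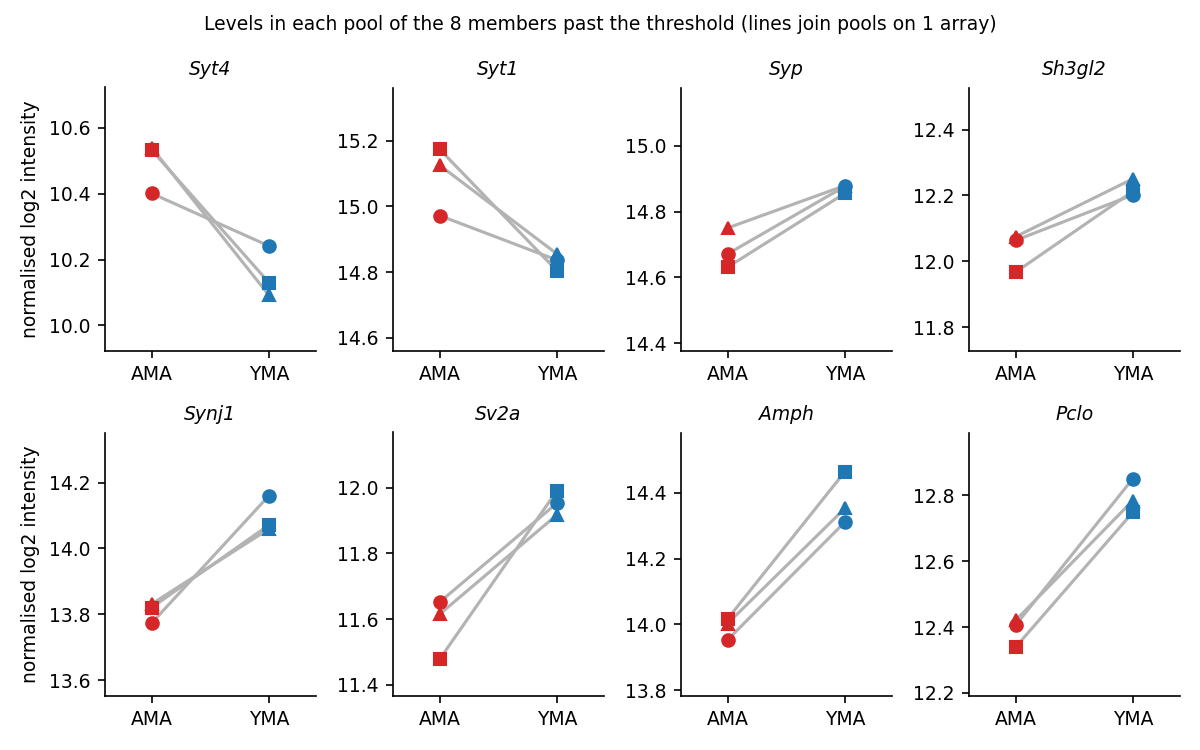
Normalised log2 intensity (vertical axis, the same span in each panel) of the 8 members past the threshold in the 3 AMA pools (left, red) and the 3 YMA pools (right, blue); grey lines join the pools on 1 array. In each panel the groups do not overlap: Syt4 and Syt1 are higher in AMA, the other 6 lower.

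None of the 9 SNARE and fusion members and none of the 3 synapsins passed, where 19.5% of all named genes did. At an unadjusted p under 0.05 in limma, 1 fusion gene was higher and 2 were lower, while no synapsin was past it; 39.5% of all named genes were. Snap25, the plasma membrane SNARE, had log2 intensities of 15.28, 15.32 and 15.31 in AMA pools, against 15.41, 15.35 and 15.26 in YMA pools. The groups overlapped, and the log2 ratio of -0.038 had a 95% interval of -0.17 to 0.093. Stx1a, its syntaxin partner, had log2 intensities of 10.94, 10.99 and 10.86 in AMA pools, against 11.05, 11.11 and 11.13 in YMA pools. All AMA pools were lower, but the ratio of -0.17 did not pass (adjusted p = 0.0787 by limma). The vesicle SNAREs Vamp1 and Vamp2 stood at -0.11 and -0.12, and the complexins Cplx1 and Cplx2, which clamp and promote fusion, at -0.0085 and -0.029. The genes for the SNARE-disassembling ATPase and its adaptors, Nsf, Napa and Napb, stood at 0.12, 0.092 and 0.054 on the log2 scale. Syn1, the most widely used synapsin marker, had log2 intensities of 14.35, 14.40 and 14.36 in AMA pools, against 14.45, 14.39 and 14.36 in YMA pools. The groups overlapped, with a ratio of -0.030 and a 95% interval of -0.15 to 0.089. Its relatives Syn2 and Syn3, which also tether vesicles in the reserve pool, stood at -0.052 and -0.11.

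Which probe stands for a gene mattered for 3 of the members that fell. Of the 37 members, 17 had several kept probes, and the values above are from the brightest. Pclo had 4 probes of 60 bases (mm9, per the file headers). The brightest, at chr5:14795934-14795993, gave the log2 ratio of -0.41. The others, whose own values were -0.12 at chr5:14863399-14863458, -0.055 at chr5:14682209-14682268 and 0.17 at chr5:14855569-14855628, did not pass. The last 30 bases of these probes are shown because they differ in one feature, with capitals marking AATAAA, the canonical polyadenylation signal.
Pclo, chr5:14795934-14795993, last 30 bases: aagtgcctgtgtAATAAAtaaagtatcttt
Pclo, chr5:14863399-14863458, last 30 bases: cagccttactAATAAAtactgaaactatca
Pclo, chr5:14682209-14682268, last 30 bases: aagtactccatccagatatggctaaagttc
Pclo, chr5:14855569-14855628, last 30 bases: gatggtgaacaactaatagttgaaattctc
The bright probe and the second in brightness hold the hexamer in these bases, and the remaining 2 do not. Counted over all 60 bases of a probe, it occurs in 16.4% of the members' kept probes and in 13.6% of all kept probes. A match is a description of the letters only, and where in the Pclo transcripts the probes lie was not analysed here.

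Synj1 had 2 kept probes, and their ratios had opposite signs. The bright one, at chr16:90936338-90936397, gave -0.29, while that at chr16:90938761-90938820 gave 0.13 and did not pass (adjusted p = 0.11 by limma). The 2 probes are labelled with different transcript records, and their last 30 bases again differ in AATAAA.
Synj1, chr16:90936338-90936397, last 30 bases: atgaAATAAAtatgtctttatcaccagctg
Synj1, chr16:90938761-90938820, last 30 bases: cagagccagtctacagtaaaaacaagcaac
With the mean over all kept probes of a gene in place of the brightest, Pclo stood at -0.10, Synj1 at -0.081 and Sh3gl2 at -0.10, and none of these 3 passed. Sh3gl2 had 2 further kept probes, at -0.13 and 0.016. Amph, Sv2a, Syp, Syt1 and Syt4 had 1 kept probe each.

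Some members passed on a probe other than the brightest. A second Syn2 probe fell, with a log2 ratio of -0.24 against -0.052 for the brightest. The same held for Syngr1, with -0.24 against -0.20. A second Nsf probe rose, with 0.22 against 0.12, and a dim Syn3 probe rose with 0.34 against -0.11. That Syn3 probe had a mean log2 intensity of 6.80. Of its bases 71.7% are A or G, and so are nearly all of its last 30. Whether this affected its ratio was not tested. Napa had a second probe at -0.43 that did not pass, against 0.092 for its brightest.

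Cplx2 had 5 kept probes, which differed in sign. The brightest gave -0.029, and its other 4 gave 0.13, 0.31, 0.38 and 0.33, of which 3 rose. These 4 consist only of A and G, and 2 of them have coordinates away from the others, at chr13:108816800-108816859 and on chromosome 5. Over the whole array, 22 kept probes consist only of A and G, of which 19 rose and none fell, with a median log2 ratio of 0.33. This count was made after the Cplx2 values were seen, and of all kept probes 7.92% rose. The 4 values are given as values of those probes and not as Cplx2 levels. No member had probes that passed in opposite directions, against 0.964% of the 5189 genes with several kept probes.

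**Figure D4:**
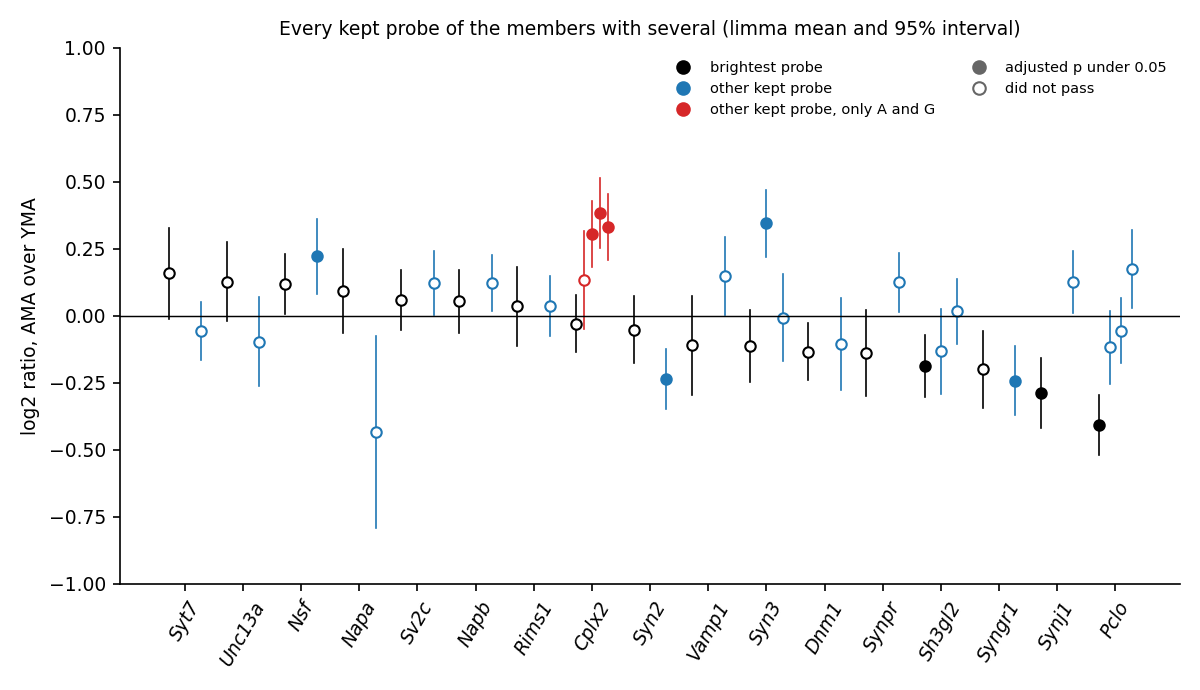
Log2 ratio of AMA over YMA (vertical axis) for every kept probe of the 17 members with several (horizontal axis); points are limma means, lines 95% intervals, and filled points passed the adjusted threshold. Black marks the brightest probe, blue other probes and red the Cplx2 probes made only of A and G; in Pclo and Synj1 the black point alone lies below and away from 0.

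The promoters of 29 members were in the RefSeq table (GRCm38.p6), as 37 windows of 300 bases from 250 before to 50 after the start of transcription. Letters of 4 motifs were searched on both strands: TGACGTCA, the full cyclic AMP response element; GCGGGGGCG and GCGTGGGCG, forms of the early growth response (EGR) element; and GGGGCGGGG, an SP1-type GC box, which can overlap the EGR forms. TGACGTCA was in 3 of the members' 37 windows (8.11%) and 1.79% of all 32851 windows. GCGGGGGCG was in 4 (10.8%) and 2.907%, GCGTGGGCG in 2 (5.41%) and 0.612%, and GGGGCGGGG in 13 (35.1%) and 11.446%. The counts behind the first 3 shares are small. The base composition of the windows was not taken into account, and the shares were not tested. The windows of 3 genes that fell are shown, chosen after their values and matches were seen, to display where the letters lie; capitals mark matches on either strand.
Pclo, chr5:14514668-14514967, plus strand: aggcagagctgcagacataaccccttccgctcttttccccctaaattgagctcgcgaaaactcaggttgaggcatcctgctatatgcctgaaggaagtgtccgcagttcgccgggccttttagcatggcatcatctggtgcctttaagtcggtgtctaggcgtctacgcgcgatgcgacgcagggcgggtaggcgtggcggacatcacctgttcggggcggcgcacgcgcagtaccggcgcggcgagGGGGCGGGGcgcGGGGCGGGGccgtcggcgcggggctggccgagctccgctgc
Synj1, chr16:91011046-91011345, minus strand: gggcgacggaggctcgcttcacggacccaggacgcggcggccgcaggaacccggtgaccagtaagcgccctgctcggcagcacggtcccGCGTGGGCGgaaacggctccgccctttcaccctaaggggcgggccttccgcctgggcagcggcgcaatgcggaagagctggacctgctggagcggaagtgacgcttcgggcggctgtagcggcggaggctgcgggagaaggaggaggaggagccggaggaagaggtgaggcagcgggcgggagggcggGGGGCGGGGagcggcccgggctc
Sh3gl2, chr4:85205206-85205505, plus strand: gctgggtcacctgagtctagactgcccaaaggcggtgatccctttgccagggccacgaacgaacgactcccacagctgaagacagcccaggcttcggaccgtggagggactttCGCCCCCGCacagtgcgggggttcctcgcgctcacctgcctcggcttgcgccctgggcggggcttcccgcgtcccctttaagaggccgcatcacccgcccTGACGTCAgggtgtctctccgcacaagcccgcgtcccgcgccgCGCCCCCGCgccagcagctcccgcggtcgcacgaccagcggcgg
The Pclo window holds GGGGCGGGG at 2 places, close to the start of transcription. In Synj1 there is 1 GCGTGGGCG and 1 GGGGCGGGG. Sh3gl2 has 1 TGACGTCA and 2 GCGGGGGCG on the opposite strand. Such letters also occur in windows of members that did not pass, such as TGACGTCA in Syn1 and Napa. The windows of Amph and Syt1, which passed, hold none of the 4 motifs.

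Beyond the members, 109 other genes of the presynaptic terminal were measured, and 7 rose while 20 fell. These were 6.42% and 18.3% of the list, against 7.35% and 12.2% of all named genes. The counts by role given below stand beside the same shares of all named genes. The median over this list was -0.027 on the log2 scale, against -0.028 over all named genes. Among 21 other active zone genes 3 rose and 6 fell. Of those that fell, Baiap3, Rims4 and Rimbp2 passed the background filter only through Cy5, the YMA channel. Requiring both channels left 106 of the 109 genes, with 7 higher and 18 lower. Ppfia4, a liprin scaffold, fell with a log2 ratio of -0.61 ± 0.0629 (SD, n = 3 arrays, adjusted p = 0.0124 by limma), the largest fall of the list. Rims4, a short RIM isoform, was lower but not well above background in any AMA pool. With AMA signals raised to at least the lowest signal well above background on each array, the mean difference was 1.38-fold. That value carries no interval. Rimbp2, which links RIM proteins to calcium channels, fell by 0.34 on the log2 scale and was above background in Cy3 on 2 of 3 arrays. Erc1, an ELKS scaffold, rose by 0.37.

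Of 26 other endocytosis genes 4 rose and 3 fell. Itsn1, the scaffold intersectin, fell by 0.44, and Picalm, a clathrin assembly adaptor, rose by 0.39 on the log2 scale. The members' endocytosis genes and the other genes of that role had different counts, 0 higher and 3 lower of 4 against 4 higher and 3 lower of 26; the difference was not tested. Among 29 other vesicle membrane genes none rose and 6 fell. They include Slc32a1, the vesicular GABA transporter, at -0.36, Sncb, beta-synuclein, at -0.36, Rab3d, a Rab3 GTPase, at -0.36 and Sypl, a synaptophysin relative, at -0.35. Of 11 other calcium sensors none rose and 2 fell, Syt3, a high-affinity synaptotagmin, among them at -0.43. Of 22 other SNARE and fusion genes none rose and 3 fell.

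Markers of neurons and of other cells in the tissue were counted in the same way, and their part in the members' results was not tested. The share that passed ranged from 10% of interneuron markers to 75% of endothelium markers. Among all named genes 19.5% passed, 7.35% higher and 12.2% lower. Of 10 general neuron markers 1 rose and 4 fell, Rbfox3, the nuclear protein NeuN, at -0.24 and Elavl3 at 0.31. Their summed linear intensity was 98942 to 103643 in AMA pools, against 106360 to 108829 in YMA pools, so these sums did not overlap. Such a sum is weighted to the brightest markers, and 4 of the 10 had a positive ratio. Of all named genes taken singly, 42.6% did not overlap. Excitatory markers gave 2 higher and 1 lower of 10 (Prox1 at -0.14, Calb1 at 0.24, Neurod6 at -0.34), with sums of 30670 to 33264 in AMA and 29315 to 31549 in YMA. Interneuron markers gave 1 lower of 10 (Pvalb at 0.053, Gad1 at -0.014, Cnr1 at -0.24), with sums of 65943 to 69429 and 68804 to 72319. Astrocyte markers gave 1 higher of 8, Gfap at 0.48, with sums of 100465 to 105344 and 103073 to 107383. Oligodendrocyte markers gave 1 higher of 8 (Ermn at 0.36, Mbp at -0.12), with sums of 77008 to 102593 and 75283 to 81279. Microglia markers gave 1 higher and 1 lower of 8 (C1qa at 0.31, Cx3cr1 at -0.46), with sums of 18385 to 19475 and 18474 to 19699. Endothelium markers gave 1 higher and 5 lower of 8 (Flt1 at 0.38, Vwf at -0.55), with sums of 14787 to 17735 and 15739 to 18116. Choroid plexus markers, of a tissue next to the hippocampus, gave 2 lower of 10, Sostdc1 at -1.24 and Kcnj13 at -1.41. All 10 of these markers had negative ratios on all 3 arrays. Among them 9 reached 1.5-fold, against 1.32% of all named genes. Their median was -0.85, -2.07 and -0.37 on arrays 1, 2 and 3, and their sum was 9548.5 to 69005 in AMA and 79058 to 115764 in YMA. Ttr, the transthyretin gene that marks this tissue, stood at -2.08 ± 1.70 (SD, n = 3 arrays) and did not pass.

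**Figure D5:**
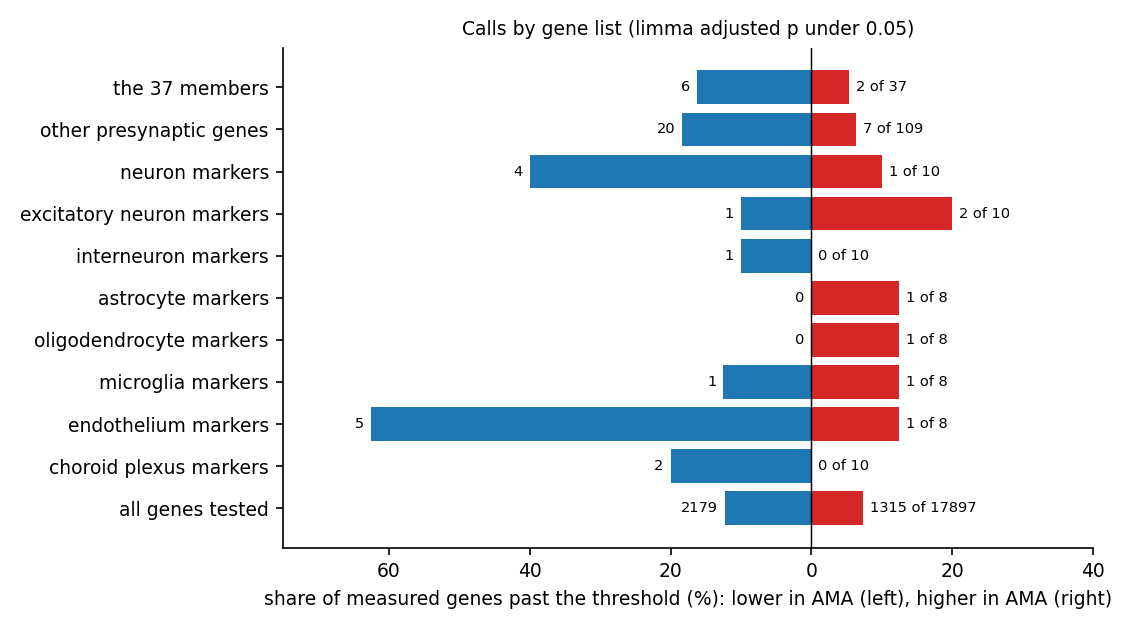
Share of measured genes (horizontal axis, %) lower in AMA (left of 0, blue) and higher in AMA (right of 0, red) at an adjusted p under 0.05, for the members and the other lists (rows); the numbers are genes. The members, with 6 lower and 2 higher of 37, lie near all genes tested, with 2179 lower and 1315 higher of 17897.

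With 3 arrays the calls rest on few samples, and each array mattered. Without array 3 none of the 8 members passed in limma (14 of 37 had an unadjusted p under 0.05, against 16 with all arrays), without array 2 only Pclo and Amph did, and without array 1 all but Syp, Sh3gl2 and Synj1 did. All 8 kept their direction in each case. The loss of calls was not particular to the members. Of the 109 other presynaptic genes, none passed without array 3. Without array 2, 0 of them were higher and 4 lower, and without array 1, 3 were higher and 11 lower, against 7 and 20 with all arrays. Counts over all probes fell as well, as given below.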

How the data were processed

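The scanner output came from Agilent Feature Extraction 10.10.1.1, and, per the file headers, mean spot signals and median local backgrounds are raw intensity values; processed signals are intensity values already corrected for background and dye. The scanner log ratio is a log10 ratio of Cy5 over Cy3, per the file headers, and flags are of another (other) kind, 0 or 1. The deposited values are log2 ratios, Cy3 over Cy5, by comparison with the scanner values; its steps are not given in the sources used here, but normexp with offset 50 and loess of the median signals gave the same values to within 5e-10, so this alternative is close to the main processing and not independent of it.

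Ratios were computed with limma 3.58.1 in R 4.3.3: normexp background correction with offset 50, loess with span 0.3 within arrays (control and flagged spots at weight 0), and averaging of a probe's spots. A probe was kept if well above background on all 3 arrays in 1 channel, which held for 27629 of 39429 probes (61 of the members' 65). The mean log2 ratio was tested against 0, two-sided, with Benjamini-Hochberg adjustment over kept probes. Levels per pool came from Aquantile scaling. For a probe not well above background in AMA, AMA signals were raised to at least the lowest signal well above background on each array. The resulting value carries no interval. Probe coordinates are mm9, per the file headers. All arrays were in 1 scan, so that no batch could be tested. The loess, averaging and test were tested on simulated data under 2 noise levels, with changes put in only at probes outside the dimmest. Nearly all of the largest changes, 1 on the log2 scale, were recovered under both. Of changes of 0.25, 2.94% were recovered when noise followed each probe's own SD, and 47.1% when it followed limma's moderated SD. The members' median absolute log2 ratio was 0.12, smaller than any change put in.

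The members and lists were chosen with earlier results of these data known. Named genes were the members, the called presynaptic genes with the largest ratios, and markers with the smallest p or set whatever their value. A presynaptic gene that this rule names, and some probe sequences, are not reported here. The exclusion of clone names from the gene background, the choice of promoters and probes shown, and the counts of A-and-G probes and of AATAAA came after values were seen. Scanner signals are the main values and the deposited table an alternative. Further alternatives were other background, dye, filter and variance settings, separate channels, the mean over probes, and leaving out each array.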

Additional observations from a re-analysis of the deposited data

How the results depend on the processing

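The deposited table, array scaling, no filter, the filter on both channels, the variance trend and no background correction left every member count within 1.5 times of 2 higher and 6 lower, and no member changed sign under them. Of the 8 calls, Syp and Sh3gl2 were lost with no filter (adjusted p = 0.0565 and 0.0573 by limma) and with the variance trend (0.0518 and 0.0525). The exception was the members' median without background correction, at -0.047.

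With the scanner's processed signals 0 members were higher and 3 lower, 2 and 7 other presynaptic genes, and 1169 and 1451 probes, with a members' median of -0.047 and Cplx1 at 0.030. An offset of 16 left 1 member higher and 4 lower. With median centring 1 member was higher and 34 lower, 3 and 93 other presynaptic genes, and 5995 and 17004 probes, with a members' median of -0.71. Signs turned in 12 members: Napa -0.64, Napb -0.65, Nsf -0.66, Rims1 -0.25, Rims3 -0.49, Sv2c -0.14, Syt1 -0.55, Syt2 0.28, Syt4 -0.21, Syt7 -0.25, Unc13a -0.10 and Unc13c -0.068. With the mean over probes 4 members were higher, Cplx2 and Nsf added, and 4 were lower. Pclo, Synj1 and Sh3gl2 no longer passed, while 3 vesicle membrane members were lower in place of 2. The members' median was -0.038, and signs turned in Cplx2 at 0.22 (a value carried by its 4 probes made only of A and G, at 0.13 to 0.38 against -0.029 for the brightest), Napa at -0.17, Syn3 at 0.075 and Vamp1 at 0.019. The Syn3 mean includes its dim probe at 0.34, against -0.11 and -0.0075 for its other kept probes. With median centring the change follows brightness by construction. The cause of the other changes was not tested.

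Leaving out each array gave 0 to 2 members higher, 0 to 3 lower, 0 to 3 other presynaptic genes higher, 0 to 11 lower, 29 to 1458 probes higher and 0 to 1905 lower, with a members' median of -0.098 to -0.051. Signs turned without array 1 in Cplx1 (range -0.058 to 0.065), Rims1 (-0.019 to 0.097), Snap25 (-0.080 to 0.0082), Sv2b (-0.13 to 0.15) and Syn1 (-0.050 to 0.0060), and without array 3 in Doc2b (-0.15 to 0.16) and Syngr3 (-0.26 to 0.023). The pools are paired by array; with separate channels and no replicate block 2 members were higher and 7 lower, Syngr1 added at -0.20, and no other member's call changed.

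The number of arrays and the fixed dye orientation limit all values, and signal near background limits Syt2 and the dim presynaptic genes.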
